A study of Rattus norvegicus with 12 samples.

Results

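The antioxidant enzymes described here are 10 genes, Sod1, Sod2, Sod3, Cat, Gpx1, Gpx3, Gpx4, Prdx3, Txnrd1 and Hmox1, found by gene name among the 32545 genes measured in left (LV) and right (RV) ventricular walls of neonatal rats. All 10 were listed, each in 1 row, and 9 passed a filter of a mean of at least 0.5 FPKM, the number of fragments per kilobase of gene scaled to the depth of the library, that left 13910 genes to be tested. Gpx4 did not pass it. The animals were Sprague–Dawley (SD) rats that underwent surgery on postnatal day 1 (P1) and were examined on P7. In the volume overload (VO) groups, a needle puncture joined the abdominal aorta to the inferior vena cava, so that arterial blood returned directly to the heart, whereas the sham groups had a sham operation at the same age. RNA-seq libraries were made from the free walls of both ventricles, which gave the groups sham LV, VO LV, sham RV and VO RV with 3 libraries in each. The fistula loads both ventricles at once and acts as a left-to-right shunt, so it is no model of overload of a single chamber. Whether an LV and an RV library came from the same rat, and whether a library held tissue of 1 rat or several, is not given in the sources used here, and p values therefore measure only the spread between these libraries.

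Superoxide leaks from the respiratory chain of working heart muscle, and superoxide dismutases turn it into hydrogen peroxide. Catalase, glutathione peroxidases and peroxiredoxins then reduce the peroxide to water, with thioredoxin reductases and glutathione reductase supplying the electrons from NADPH. Many of these genes are targets of the transcription factor NRF2, and after birth the heart meets more oxygen and shifts to mitochondrial fuel oxidation.

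Reads on genes, recovered from the FPKM, ranged from 14121713 to 16871371 per library, and the tested enzymes rested on 273 to 8166 reads each. All 12 cardiomyocyte markers examined were above 0 in every library. VO RV replicate 2 stood apart: its atrial markers summed to 4693 FPKM against 310 to 1811 in the other libraries, its fibroblast markers to 5144 against 2182 to 3810, and its cardiomyocyte markers to 23559 against 28851 to 36917. Sham RV replicate 1 had atrial markers of 1171 FPKM, while the remaining sham RV libraries had 310 and 399. Sham LV replicate 2 had the lowest share of reads on mitochondrial genes, 14.4%, where the highest library had 26.2%. Y-linked genes, which only male rats carry, summed to 0 FPKM in all 3 VO LV libraries. In sham LV they summed to 63.0, 64.1 and 0 FPKM, and both RV groups held libraries with them and libraries at or near 0. The sex of the rats is not given in the sources used here. In the LV, overload and sex therefore cannot be fully told apart. In such bulk tissue, fewer cells of a type and less RNA per cell cannot be told apart.

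The promoters of Sod2 and Prdx3 are shown because these genes, which encode enzymes of the mitochondrial matrix, were the pair of enzymes whose levels followed each other most closely over the 12 libraries. Each is the 250 bases before the gene's start in RefSeq (build GRCr8, minus strand), at chr1:50050169-50050418 for Sod2 and chr1:270000112-270000361 for Prdx3, and capitals mark GC boxes.
Sod2: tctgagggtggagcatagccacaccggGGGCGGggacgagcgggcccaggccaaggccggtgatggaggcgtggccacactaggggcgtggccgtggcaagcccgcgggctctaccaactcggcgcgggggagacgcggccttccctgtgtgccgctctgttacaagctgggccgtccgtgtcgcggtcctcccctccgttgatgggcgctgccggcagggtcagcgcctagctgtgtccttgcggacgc
Prdx3: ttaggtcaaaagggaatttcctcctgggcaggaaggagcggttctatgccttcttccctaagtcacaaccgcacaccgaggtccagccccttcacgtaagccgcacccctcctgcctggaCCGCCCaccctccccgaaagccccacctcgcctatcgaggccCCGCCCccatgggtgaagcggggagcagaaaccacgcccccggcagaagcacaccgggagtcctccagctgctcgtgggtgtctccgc
The letters G and C made up 71.6% of the Sod2 stretch and 64.8% of the Prdx3 stretch. A GC box was searched as GGGCGG on both strands, which gave 1 match for Sod2 and 2 for Prdx3. In windows from 250 bases before to 50 bases after the start, 33.1% of all 33469 RefSeq windows held such a match, as did 9 of the 11 windows of the 8 enzymes with an entry (Sod1, Sod2, Cat, Gpx1, Gpx3, Gpx4, Prdx3 and Txnrd1). The antioxidant response element, the binding motif of NRF2, was searched as TGACNNNGC and occurred in 2 of these 11 windows, that of Sod2 and 1 of Txnrd1, against 12.1% of all windows. CCAAT was found in 6 of the 11 windows against 37.5% of all and TATAAA in 1 (Sod1) against 14.2%. Such matches are letters in a window and were not tested as binding sites.

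Ranked by the mean level over the 12 libraries, Gpx1 was the most abundant at 478 FPKM, followed by Sod1 at 254 FPKM, Prdx3 at 113 FPKM, Gpx3 at 111 FPKM, Sod2 at 87.6 FPKM and Cat at 56.7 FPKM. Sod3, Txnrd1 and Hmox1 were lower, at 20.03, 19.6 and 15.0 FPKM. Gpx1 was above Sod1, and Sod1 above Prdx3, in all 12 libraries, whereas Prdx3 was above Gpx3, and Gpx3 above Sod2, in 7 of 12. Prdx3 was above Sod2 in all 12, so it was the place of Gpx3 among these 3 that was not distinct. Sod3 exceeded Txnrd1 in 8 libraries and Txnrd1 exceeded Hmox1 in 10. Gpx1 lay at the 98.8th percentile of the tested genes by mean level and Hmox1 at the 67.9th. The ratio of the highest to the lowest library was smallest for Txnrd1 (1.38) and Gpx1 (1.401) and greatest for Gpx3 (3.48), Sod3 (2.30) and Cat (2.06).

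**Figure D1:**
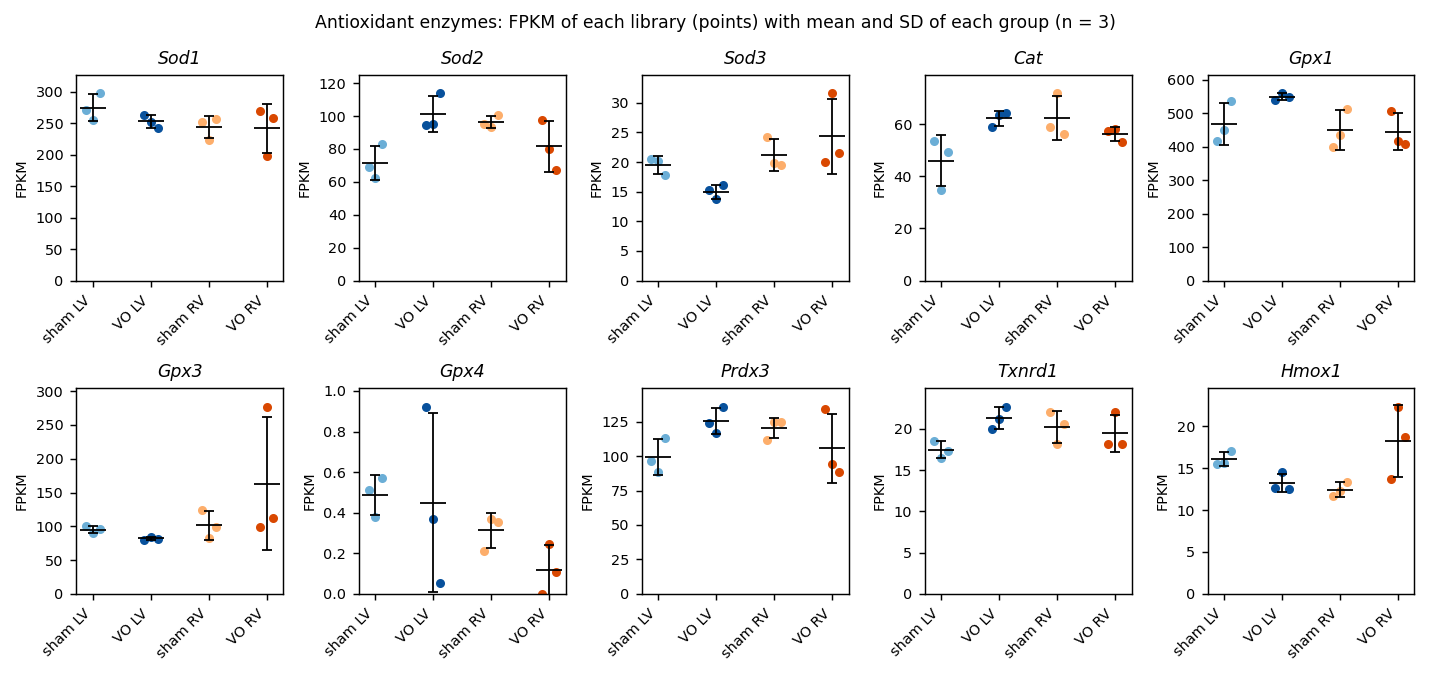
FPKM of the 10 antioxidant enzymes in each library (points, vertical axis in FPKM from 0) with the mean and SD of each group (n = 3), for sham LV, VO LV, sham RV and VO RV. Sod2 averages 71.3 FPKM in sham LV and 101 FPKM in VO LV, the 277 FPKM of Gpx3 in VO RV replicate 2 lies far above all other libraries, and Gpx4 stays below 1 FPKM.

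Sod1 (ENSRNOG00000002115, chromosome 11, 30363280 to 30368862 as the deposited table lists it) encodes the copper-zinc superoxide dismutase of the cytosol. Its level was 272, 256 and 298 FPKM in sham LV, 264, 253 and 243 in VO LV, 252, 223 and 257 in sham RV, and 269, 197 and 259 in VO RV. The 4 groups overlapped, with means of 275 ± 21.3 (SD, n = 3), 253 ± 10.7, 244 ± 18.2 and 242 ± 38.8 FPKM in that order, and the single low value was that of VO RV replicate 2.

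Sod2 (ENSRNOG00000019048, chromosome 1, 47914759 to 47921587) encodes the manganese superoxide dismutase of mitochondria. It measured 69.2, 62.1 and 82.7 FPKM in sham LV, 94.5, 95.1 and 114 in VO LV, 95.2, 93.6 and 101 in sham RV, and 97.6, 79.7 and 67.2 in VO RV. Sham LV was therefore below both sham RV and VO LV in every library, while VO RV spanned the range between. The means were 71.3 ± 10.5 FPKM in sham LV, 101 ± 10.97 in VO LV, 96.5 ± 3.77 in sham RV and 81.5 ± 15.3 in VO RV.

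Sod3 (ENSRNOG00000003869, chromosome 14, 60958592 to 60964324) encodes the secreted superoxide dismutase of the extracellular space. Its values were 20.5, 20.2 and 17.8 FPKM in sham LV, 15.2, 13.8 and 16.1 in VO LV, 24.3, 19.9 and 19.5 in sham RV, and 19.9, 31.6 and 21.5 in VO RV. VO LV was the lowest group, with no library reaching any of the others, and VO RV replicate 2, the library with high atrial and fibroblast markers, held the highest value. Group means were 19.5 ± 1.48, 15.0 ± 1.18, 21.2 ± 2.69 and 24.4 ± 6.33 FPKM.

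Cat (ENSRNOG00000008364, chromosome 3, 93379874 to 93412058) encodes catalase, the peroxisomal enzyme that splits hydrogen peroxide into water and oxygen. It was at 53.6, 34.9 and 49.4 FPKM in sham LV, 58.8, 63.4 and 64.4 in VO LV, 59.0, 71.8 and 56.1 in sham RV, and 57.5, 58.0 and 53.2 in VO RV. As for Sod2, every sham LV library lay below every sham RV and VO LV library, and sham LV replicate 2 was the lowest of all. The means were 45.9 ± 9.82, 62.2 ± 2.96, 62.3 ± 8.37 and 56.2 ± 2.64 FPKM.

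Gpx1 (ENSRNOG00000048812, chromosome 8, 117117430 to 117118522) encodes the main glutathione peroxidase of the cytosol and mitochondria, a selenoprotein. Sham LV libraries had 416, 449.8 and 536 FPKM, VO LV libraries 539.7, 559 and 548, sham RV libraries 399, 436 and 514, and VO RV libraries 507, 417 and 409. VO LV lay above all other libraries and within a narrow range, at 549 ± 9.92 FPKM, against 467 ± 61.9 in sham LV, 449.7 ± 58.5 in sham RV and 445 ± 54.5 in VO RV.

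Gpx3 (ENSRNOG00000052564, chromosome 10, 40247436 to 40255422) encodes the secreted glutathione peroxidase, known best from plasma. It was 99.7, 89.8 and 96.3 FPKM in sham LV, 79.7, 84.8 and 81.5 in VO LV, 125, 82.3 and 98.3 in sham RV, and 99.6, 277 and 113 in VO RV. The 277 FPKM of VO RV replicate 2 set the VO RV mean of 163 ± 98.9 FPKM, whereas the means were 95.3 ± 5.05 in sham LV, 82.0 ± 2.58 in VO LV and 102 ± 21.5 in sham RV.

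Gpx4 (ENSRNOG00000013604, chromosome 7, 12516357 to 12519154) encodes the peroxidase that reduces lipid hydroperoxides in membranes. Its row held 0 to 17 reads per library, which is 0.514, 0.379 and 0.570 FPKM in sham LV, 0.923, 0.370 and 0.0514 in VO LV, 0.213, 0.371 and 0.355 in sham RV, and 0, 0.245 and 0.107 in VO RV. The gene shares 2298 of its 2798 bases (82.1%) with Sbno2 on the opposite strand, which was at 3.16 to 6.13 FPKM. None of the other 9 enzymes overlapped another listed gene. Because the strand setting of the counting is not given in the sources used here, reads of Gpx4 and Sbno2 may not be told apart, and Gpx4 did not enter the model.

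Prdx3 (ENSRNOG00000010958, chromosome 1, 282238773 to 282251257) encodes the peroxiredoxin of mitochondria. The level was 96.1, 88.5 and 113 FPKM in sham LV, 124, 117 and 136 in VO LV, 112, 125 and 125 in sham RV, and 134, 94.2 and 88.1 in VO RV. All 3 VO LV libraries were above all 3 sham LV libraries, and in VO RV replicate 1 stood far above the other 2. Means were 99.3 ± 12.7, 125 ± 9.77, 120.5 ± 7.34 and 106 ± 25.2 FPKM.

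Txnrd1 (ENSRNOG00000009088, chromosome 7, 26946125 to 26984400) encodes the cytosolic thioredoxin reductase, a selenoprotein that keeps thioredoxin reduced. It was at 18.6, 16.5 and 17.3 FPKM in sham LV, 19.995, 21.2 and 22.7 in VO LV, 22.0, 18.1 and 20.5 in sham RV, and 18.1, 22.0 and 18.2 in VO RV. VO LV again lay wholly above sham LV, and the sham and VO libraries of the RV overlapped. The means were 17.5 ± 1.04, 21.3 ± 1.35, 20.2 ± 1.98 and 19.4 ± 2.21 FPKM.

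Hmox1 (ENSRNOG00000014117, chromosome 19, 14508616 to 14515456) encodes the inducible heme oxygenase, which splits heme and is also expressed by macrophages. Sham LV libraries had 15.5, 15.7 and 17.1 FPKM, VO LV libraries 12.6, 14.5 and 12.6, sham RV libraries 11.7, 12.3 and 13.4, and VO RV libraries 13.7, 22.4 and 18.7. In the sham hearts the LV lay above the RV, and with VO each LV library was below, and each RV library above, the sham libraries of the same ventricle. Group means were 16.1 ± 0.855 in sham LV, 13.2 ± 1.097 in VO LV, 12.5 ± 0.879 in sham RV and 18.3 ± 4.34 FPKM in VO RV. Summed macrophage markers ranged from 148 to 163 FPKM in sham LV, 115 to 147 in VO LV, 113 to 123 in sham RV and 119 to 176 in VO RV, with Marco at 0 throughout, and their part in the Hmox1 values was not tested.

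To compare the normal neonatal LV and RV, sham LV was set against sham RV in a limma model of log2(FPKM + 0.5) over the 4 groups, in which a gene was called when its Benjamini-Hochberg adjusted p was under 0.05 and its fold change over 1.3. None of the 9 tested enzymes was called, against 3.85% of all tested genes, 536 in number. That background was itself unstable, at 0 genes without sham RV replicate 1 and 872 without VO RV replicate 3. At an unadjusted p under 0.05 with the same fold, 2 of 9 passed (17.8% of all genes), Sod2 and Cat, both lower in the LV (9.63% of genes were lower). Genes described below as past the unadjusted p met both conditions. The log2 difference of Sod2 was −0.44 (standard error 0.14, 95% interval −0.76 to −0.13, adjusted p = 0.0888 from limma) and that of Cat −0.45 (standard error 0.15, 95% interval −0.77 to −0.13, adjusted p = 0.0896). Hmox1 differed by 0.36 in the opposite direction (adjusted p = 0.161). These 3 enzymes did not overlap between the groups, and neither did 32.2% of all tested genes, 15.6% being higher and 16.6% lower in the LV. Without sham LV replicate 2 the log2 difference of Cat was −0.27. Red blood cell markers summed to 13398 to 17357 FPKM in sham LV and 6783 to 11384 in sham RV, and endothelial markers to 524 to 572 and 382 to 405 FPKM, with 3 of 8 tested called higher in the LV. With a covariate for the red blood cell markers the log2 difference was −0.48 for Sod2 and −0.30 for Cat, and the part of the endothelial markers was not tested. Mitochondrial content markers were lower in sham LV for 8 of 11 tested genes, 4 of them past the unadjusted p and none called, with a median of −0.23, and their part in the values of Sod2 and Cat was likewise not tested. The median log2 difference was −0.12 over the 9 enzymes and 0.01 over all tested genes.

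The response of the LV to overload was read from VO LV against sham LV. No enzyme was called in this comparison either, where the background was 0.0935% of genes, 13 in all, and 0 to 555 when each library was left out in turn. The levels of 8 of the 9 enzymes nevertheless did not overlap between the groups, against 32.4% of all tested genes: Sod2, Cat, Gpx1, Prdx3 and Txnrd1 were higher in every VO LV library than in any sham LV library (16.7% of genes), and Sod3, Gpx3 and Hmox1 were lower (15.7%). Sod1 alone overlapped. The enzymes are not independent of each other, and these libraries are shared by all of them. At the unadjusted p, 2 of 9 enzymes passed, both higher in VO LV, against 15.7% of all genes and 9.27% on the higher side. They were Sod2, with a log2 fold change of 0.51 (standard error 0.14, 95% interval 0.20 to 0.82, adjusted p = 0.0833 from limma), and Cat, with 0.46 (standard error 0.15, 95% interval 0.14 to 0.78, adjusted p = 0.107). Prdx3 and Txnrd1 had log2 fold changes of 0.34 and 0.28 (adjusted p = 0.199 and 0.147), and Gpx1 had 0.24 (adjusted p = 0.282). On the lower side, Sod3 was at −0.36 (adjusted p = 0.197), Hmox1 at −0.27 (0.291) and Gpx3 at −0.21 (0.706), and Sod1 was at −0.12 (0.591). Txnrd1, Sod3 and Prdx3 also had an unadjusted p under 0.05 (0.0206, 0.0416 and 0.0431 from limma), with a fold under 1.3. Sod3 was called with a covariate of atrial markers (−0.40, adjusted p = 0.0483), a setting that called 273 of all tested genes in place of 13.

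Several other measures moved with these LV values. The Y-linked genes were at 0 in all VO LV libraries and at 63.0, 64.1 and 0 FPKM in sham LV, so sex and overload were partly confounded. With a covariate for these genes, the log2 fold change in the LV was 0.33 for Sod2 and 0.44 for Cat. That of Prdx3 was 0.18 (0.34 without it, adjusted p = 0.634 with it from limma). For Gpx1 it was 0.07 (0.24 without the covariate, adjusted p = 0.826 with it) and for Gpx3 −0.33 (−0.21 without it). Without sham LV replicate 2 that of Cat was 0.27. Of 11 tested genes that mark mitochondrial content, 8 were higher and 3 lower in VO LV than in sham LV, none was called, and their median log2 difference was 0.34. Their sum was 4713 to 5158 FPKM in sham LV and 5055 to 5372 in VO LV. Within that list, Cs, citrate synthase of the mitochondrial matrix, was at 111 to 182 FPKM in sham LV, 257 to 334 in VO LV, 237 to 262 in sham RV and 148 to 240.4 in VO RV. Cox4i1, a subunit of cytochrome c oxidase from the same list, was at 1850 to 2614 FPKM in sham LV and lower, at 1627 to 1841, in VO LV. Both were named after their values were seen. The share of these markers in the values of Sod2 and Prdx3 was not tested. Transcripts of the mitochondrial genome itself were lower in VO LV for 10 of 13 genes (median −0.11, none called), and with a covariate for them the log2 fold changes were 0.52 for Sod2, 0.36 for Prdx3 and 0.49 for Cat. Endothelial markers were lower in VO LV for 8 of 8 tested genes, with a median of −0.24, and summed to 524 to 572 FPKM in sham LV and 409 to 459 in VO LV. Red blood cell markers were lower for 9 of 10 (median −0.41), fibroblast markers for 9 of 10 (median −0.20) and macrophage markers for 13 of 14 (median −0.18), while 8 of 12 cardiomyocyte markers were higher (median 0.24). None of these markers was called. With a covariate for the red blood cell markers the LV log2 fold change was −0.40 for Gpx3 in place of −0.21 and −0.01 for Sod1 in place of −0.12, against 0.53 for Sod2 and 0.37 for Cat. The part of the endothelial, fibroblast, macrophage and cardiomyocyte markers was not tested.

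**Figure D2:**
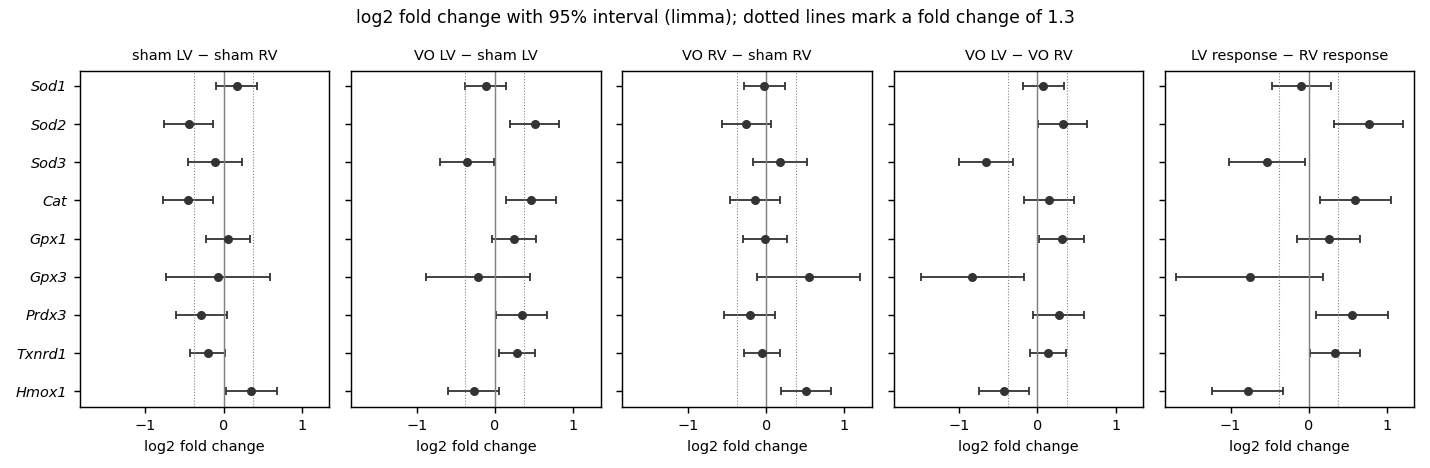
Log2 fold change (horizontal axis) of the 9 tested enzymes with its 95% interval from limma, 1 panel for each of the 5 comparisons, with dotted lines at a fold change of 1.3. Sod2 and Cat lie on the negative side for sham LV against sham RV and on the positive side for VO LV against sham LV, and the last panel, the LV response minus the RV response, places Sod2 at 0.76 and Hmox1 at −0.78.

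For the RV, VO RV was set against sham RV. No enzyme was called and no gene of the 13910 was (0% of genes from limma, and 4.91% at the unadjusted p, 1.85% on the higher side). Hmox1 was the only enzyme to pass the unadjusted p, with a log2 fold change of 0.51 (standard error 0.15, 95% interval 0.19 to 0.84, adjusted p = 0.541), and the only one whose groups did not overlap, against 12.5% of all genes and 5.64% on the higher side. Without VO RV replicate 2 its log2 fold change was 0.35. Of 14 macrophage markers tested, 12 were higher in VO RV, 5 of them past the unadjusted p, and the median of their log2 values differed by 0.40. Atrial markers were higher for 8 of 9 (median 0.64) and fibroblast markers for 9 of 10 (median 0.15), while mitochondrial content markers were lower for 9 of 11 (median −0.14) and cardiomyocyte markers for 9 of 12 (median −0.14, 2 past the unadjusted p). None was called, and of these lists only the atrial one was tested as a covariate. Gpx3 had a log2 fold change of 0.54 (95% interval −0.12 to 1.21, adjusted p = 0.639), which was 0.08 without VO RV replicate 2 and 0.36 with the covariate of atrial markers. Sod2, Prdx3 and Cat were at −0.26, −0.21 and −0.14 (adjusted p = 0.639, 0.700 and 0.802). With single libraries left out, Sod2 ranged from −0.40 to −0.12 and Prdx3 from −0.40 to −0.09, lowest when VO RV replicate 1 was dropped and highest when replicate 3 of that group was, while Cat went from −0.21 without sham RV replicate 3 to −0.03 without sham RV replicate 2. Sod3 was at 0.18 (adjusted p = 0.763), at −0.03 without VO RV replicate 2 and at 0.09 with the covariate of atrial markers. Sod1, Gpx1 and Txnrd1 lay between −0.06 and −0.01. The 95% interval of Gpx1 was −0.30 to 0.27 and that of Txnrd1 was −0.28 to 0.17, so a change of 1.3-fold was outside these intervals.

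Between the overloaded ventricles, VO LV against VO RV, no enzyme was called (0.00719% of genes, 1 gene). Sod3 was the enzyme with the smallest p, at a log2 difference of −0.65 (standard error 0.16, 95% interval −0.999 to −0.31, adjusted p = 0.241 from limma). Gpx3 was at −0.83 (95% interval −1.50 to −0.17, adjusted p = 0.351) and Hmox1 at −0.43 (95% interval −0.75 to −0.10, adjusted p = 0.333), so that 3 of 9 enzymes passed the unadjusted p, all lower in the LV, against 7.4% of all genes and 3.56% on the lower side. Without VO RV replicate 2 these log2 differences were −0.45, −0.37 and −0.27. Fibroblast markers were lower in VO LV than in VO RV for 9 of the 10 tested, 7 of them past the unadjusted p, with a median log2 difference of −0.54. Their part in the values of the secreted enzymes Sod3 and Gpx3 was not tested. Atrial markers were lower for 8 of 9 (median −0.28), and with a covariate for them Sod3 was at −0.54 and Gpx3 at −0.60. Mitochondrial content markers were higher for 9 of 11 (median 0.22, 2 past the unadjusted p), and their part was not tested. Macrophage markers were lower for 14 of 14 (median −0.32, 2 past the unadjusted p) and cardiomyocyte markers higher for 12 of 12 (median 0.28, 3 past it). None of the macrophage or cardiomyocyte markers was called, and their part in the value of Hmox1 was not tested either. Cat and Gpx1 were higher in every VO LV library than in any VO RV library (8.45% of genes) and Sod3 and Gpx3 lower (7.69%), 4 of 9 enzymes against 16.1% of genes.

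Whether the ventricles responded differently was tested as the LV response minus the RV response in the same model. No enzyme was called, against 4.19% of all genes (583 genes, and 0 to 1003 when each library was left out), while 5 of 9 passed the unadjusted p (23.1% of genes), 3 with a positive difference (13.1%) and 2 with a negative one (9.94%). Sod2 and Hmox1 were nearest to the threshold. For Sod2 the difference of responses was 0.76 (standard error 0.20, 95% interval 0.32 to 1.21, adjusted p = 0.0553 from limma), and for Hmox1 it was −0.78 (standard error 0.21, 95% interval −1.24 to −0.32, adjusted p = 0.0578). Cat (0.60, adjusted p = 0.112) and Prdx3 (0.55, 0.138) lay on the side of Sod2, and Sod3 (−0.54, 0.163) on that of Hmox1. Sod2 had an adjusted p of 0.0220, Prdx3 of 0.0258 and Hmox1 of 0.0145 when VO RV replicate 1 was left out, and Sod2 had 0.0367 without sham LV replicate 3, so these calls depended on single libraries. With the covariate of atrial markers Sod2, Hmox1, Sod3 and Gpx3 were called (adjusted p from 0.0359 to 0.0477 from limma). That setting called 1265 of all 13910 tested genes, in place of 583. Txnrd1, Gpx1 and Sod1 differed by 0.34, 0.26 and −0.09 (adjusted p = 0.180, 0.398 and 0.760), and Gpx3 by −0.75 with a wide interval of −1.69 to 0.18. Without VO RV replicate 2 the difference was −0.29 for Gpx3, −0.33 for Sod3 and −0.62 for Hmox1. Markers of cells moved in this contrast as well. On the side of Hmox1, macrophage markers were negative for 14 of 14 tested genes (median −0.55, 1 called), fibroblast markers for 9 of 10 (median −0.38, none called), endothelial markers for 8 of 8 (median −0.29, 2 past the unadjusted p, none called) and red blood cell markers for 9 of 10 (median −0.53), where the remaining one was called positive. On the side of Sod2, mitochondrial content markers were positive for 7 of 11 (median 0.48, 2 called) and cardiomyocyte markers for 8 of 12 (median 0.25, 3 called). The part of the macrophage, fibroblast, endothelial, cardiomyocyte and mitochondrial content markers in the enzymes' values was not tested. This comparison contains the same sham libraries as those above and is not separate evidence.

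**Figure D3:**
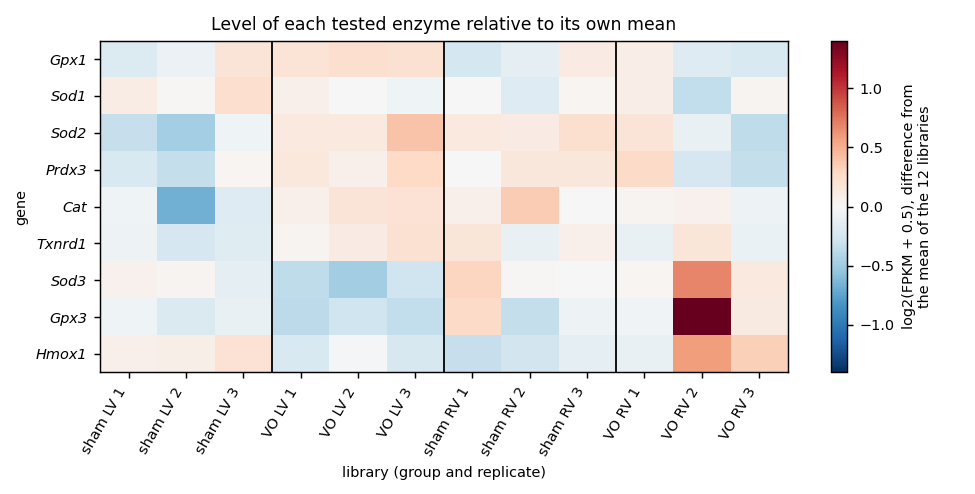
Level of the 9 tested enzymes (rows) in the 12 libraries (columns, in the order sham LV, VO LV, sham RV, VO RV) as log2(FPKM + 0.5) minus the mean of that enzyme over the 12 libraries, from blue (lower) to red (higher). Sod2, Prdx3, Cat and Txnrd1 are bluer in sham LV than in VO LV, Sod3 is bluest in VO LV, where Gpx3 is blue as well, and VO RV replicate 2 is the reddest column for Sod3, Gpx3 and Hmox1.

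Each enzyme was also compared without a model, by permuting the deposited FPKM between libraries (exact test, two-sided) in the 4 comparisons of 2 groups, 40 tests with Gpx4 included. The smallest p that 3 libraries against 3 can give is 0.10, which 17 tests reached, and after adjustment over the 40 tests the lowest was 0.235. Voom on the recovered reads called 0 enzymes in these 4 comparisons and 1, Sod2, for the difference of responses, where it called 802 of all tested genes.

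Over the 12 libraries, 36 pairs of the 9 tested enzymes were compared in their log2 levels by permutation. Sod2 and Prdx3 had the highest correlation, with Pearson's r of 0.934 (adjusted permutation p = 0.00036) and Spearman's rho of 0.860 (0.00984). It was 0.876 without sham LV replicate 2 and VO RV replicate 3, and 0.915 within groups, after removal of the group means. The secreted enzymes Sod3 and Gpx3 followed each other at r of 0.865 (adjusted permutation p = 0.00216) and rho of 0.853 (0.00984), at 0.833 without VO LV replicate 2 and VO RV replicate 2, and at 0.890 within groups. Sod3 and Gpx1 ran in opposite directions, with r of −0.798 (adjusted permutation p = 0.00288) and rho of −0.930 (0.00252), r of −0.855 without VO LV replicate 2 and VO RV replicate 2, and −0.607 within groups. Sod2 and Cat had r of 0.731 (adjusted permutation p = 0.0313), but rho of 0.608 (0.131) did not pass, and r was 0.518 without sham LV replicate 2 and VO RV replicate 3 and 0.398 within groups over all 12 libraries. The other 32 pairs did not pass on Pearson's r. Within groups, where r was not tested, some of them were close, at 0.832 for Gpx3 and Txnrd1 (0.330 over the 12 libraries). Sod3 and Txnrd1 had 0.762 (0.062), Gpx1 and Prdx3 0.749 (0.672), and Sod1 and Sod3 −0.744 (−0.541). All pairs come from the same libraries and share their makeup of cells.

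**Figure D4:**
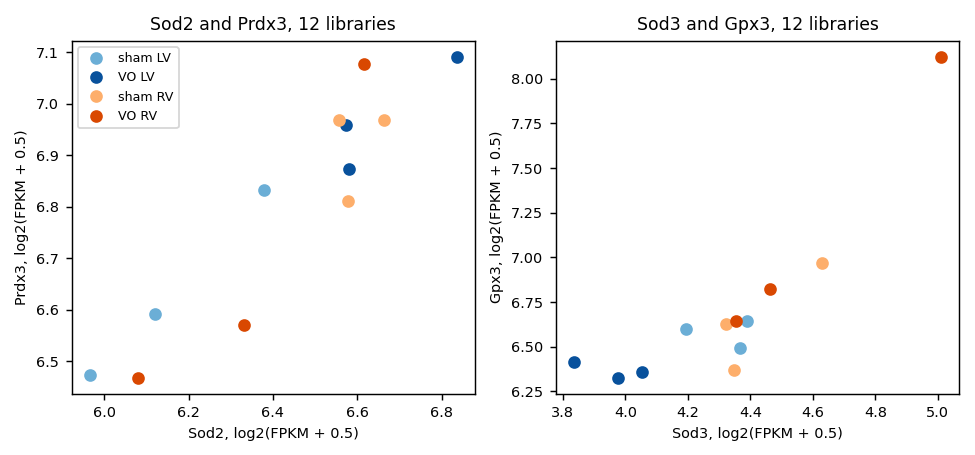
Levels of Sod2 and Prdx3 (left) and of Sod3 and Gpx3 (right) in the 12 libraries, both axes as log2(FPKM + 0.5), with a colour for each group. The points of Sod2 and Prdx3 lie near a line (r = 0.934) with sham LV replicate 2 at the lower end, and VO RV replicate 2 stands at the upper right of the Sod3 and Gpx3 plot.

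Among the 13910 tested genes, the 2 whose log2 levels were most like each enzyme were picked by Pearson's r over the 12 libraries, as a description with no test. For Sod2 they were Nudt3 (0.985) and Klhl31 (0.979), and for Prdx3 Cfl2 (0.969) and Poldip2 (0.967). Sod1 was most like Ndufv3 (0.980), a subunit of respiratory complex I, and Minos1 (0.965), of the mitochondrial inner membrane. Sod3 was most like Olfml3 (0.965) and Sertad4 (0.961), and Gpx3 most like Zfp365 (0.957) and RGD1310110 (0.955). Cat was nearest to Enpp5 (0.968) and Cdk14 (0.957), Txnrd1 to Hlcs (0.940) and Dnajc27 (0.936), and Gpx1 to Gpr137 (0.936) and Eif4ebp1 (0.896). Hmox1 had the weakest likeness, with Tmem176a (0.887) and Sash1 (0.877).

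Around these enzymes, 107 further genes of antioxidant defence and of oxidant production were listed, of which 87 were tested. Between sham LV and sham RV, 5 of the 87 were called, against 3.85% of all tested genes, a count not read as particular to the list. Mgst2, a microsomal glutathione transferase, was higher in the LV (8.20 ± 1.08 against 3.83 ± 1.06 FPKM, log2 difference 1.03, adjusted p = 0.0325 from limma), as were the glutathione transferases Gsto1 (0.55, adjusted p = 0.0380) and Gstp1 (0.46, 0.0389) and the NADPH oxidase component Ncf4 (0.89, 0.0432), which leukocytes express. Macrophage markers were higher in sham LV for 12 of 14 tested genes (median 0.21, none called) and summed to 148 to 163 FPKM against 113 to 123 in sham RV, and their part in the value of Ncf4 was not tested. Nfe2l1, a transcription factor related to NRF2, was lower in the LV, at 24.4 ± 7.90 against 53.3 ± 9.65 FPKM (−1.15, adjusted p = 0.0459). By group, 3 of 16 tested genes of glutathione synthesis and use, 1 of 10 NRF2 regulators and targets and 1 of 10 producers of superoxide and peroxide were called. None was called in the other groups, which held 2 glutathione peroxidases, 5 peroxiredoxins, 9 genes of the thioredoxin system, 7 of NADPH supply, 4 of heme breakdown and iron storage, 6 of selenoprotein synthesis and 18 other antioxidant factors. Without sham RV replicate 1, no listed gene was called in this comparison, and the same held without sham LV replicate 1, sham LV replicate 2, sham RV replicate 2 or VO LV replicate 2. It was 1 to 3 genes without sham LV replicate 3, sham RV replicate 3, VO LV replicate 1 or VO LV replicate 3.

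In neither ventricle was a listed gene called for its response to VO, nor between VO LV and VO RV. In the LV, the genes with the smallest p were Mafk, a small Maf partner of NRF2 (log2 fold change 0.36, adjusted p = 0.0582 from limma), Mgst2 (−0.85, 0.0582) and Nfe2l1 (1.17, 0.0612). Nfe2l1 measured 26.0, 15.9 and 31.4 FPKM in sham LV and 48.6, 51.0 and 61.4 in VO LV, without overlap. In the RV they were Ncf4 (0.69, adjusted p = 0.541), Gsto1 (0.36, 0.542) and Taldo1 of the pentose phosphate pathway (0.19, 0.568). Between the overloaded ventricles they were Prdx4, the peroxiredoxin of the endoplasmic reticulum (−0.37, adjusted p = 0.257), Gpx7 of the glutathione peroxidases (−0.51, 0.287) and the small GTPase Rac2 of the NADPH oxidase (0.57, 0.310). Nfe2l2, which encodes NRF2 itself, and its repressor Keap1 were added after their values were seen, with log2 fold changes in the LV of 0.24 (adjusted p = 0.146) and 0.02 (0.945).

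The difference of responses was called for 5 of the 87 genes, against 4.19% of all tested genes, and this count is not read as a result about the list. Nfe2l1 (1.73, adjusted p = 0.0384 from limma) and the methionine sulfoxide reductase Msrb3 (0.98, 0.0413) had the higher response in the LV. Mgst2 (−1.23, adjusted p = 0.0369), the transketolase gene Tkt (−0.82, 0.0422) and Ncf4 (−1.20, 0.0474) had the lower. Macrophage markers were negative for 14 of 14 tested genes in this contrast (median −0.55, 1 called), and their part in the value of Ncf4 was not tested. Over the 87 genes, the median difference of responses was −0.11, against 0.26 for the 9 enzymes and −0.04 for all tested genes. All 5 calls were lost without VO LV replicate 3, where the adjusted p was between 0.110 and 0.126, and no listed gene was called without sham LV replicate 1 or 2, sham RV replicate 1 or 2, VO LV replicate 2 or VO RV replicate 3. The count was 1 without VO LV replicate 1, 3 without sham RV replicate 3 and 9 without VO RV replicate 1.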

How the data were processed

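RNA from LV and RV free walls of 12 libraries was measured. The authors removed low-quality reads, aligned with HISAT2 2.0.5, counted reads per gene with featureCounts 1.5.0-p3 and deposited FPKM for each library without pooling. The genome build, annotation and strand setting are not given in the sources used here, and positions are those of the deposited table. The authors' DESeq2 test was not run, as the main model was built on the deposited FPKM. Counts of called genes here are those of limma and can differ from the authors' own. Read numbers were recovered from FPKM and gene length, and 100% of values under 200 reads were whole within 0.02. The voom alternative used these read numbers.

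Median-ratio size factors were applied to the FPKM, which were analysed as log2(FPKM + 0.5). Genes averaging 0.5 FPKM or more were fitted in R 4.3.3 with limma 3.58.1 (eBayes with trend) in 1 model of 4 groups, which share 1 estimate of the spread, with Benjamini-Hochberg adjustment over all tested genes. The procedure was tested on simulated data. Fold changes are on the log2(FPKM + 0.5) scale and understate those of low genes. Permutation tests used SciPy 1.17.1.

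All 10 enzymes were named, with the listed genes called, the 3 smallest p of each comparison and the 2 genes most like each enzyme. The enzymes, gene lists and markers were chosen with earlier results of these data known. Alternatives covered scaling, pseudocount, filters, voom on recovered reads, separate fits, robust eBayes, a block for the replicate number, array weights, covariates, thresholds and each library left out. The covariate of mitochondria-encoded transcripts, and leaving out sham LV replicate 2 with VO RV replicate 2, were added after seeing the data. Promoter sequences are from RefSeq (GRCr8), whose coordinates differ from those of the deposited table.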

Additional observations from a re-analysis of the deposited data

Results flagged for a closer look

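The response to VO in the LV set against that in the RV was flagged for 7 genes, among them 1 of the enzymes. A gene was flagged if this difference was called (4.19% of all tested genes were) or if VO separated from sham in opposite directions in both ventricles. Only the tested enzymes and the listed genes picked for a call or a small p were searched. The share of all tested genes with the opposite pattern was not computed, so the count is not read as a result. Hmox1 was lower in every VO LV library and higher in every VO RV library than in the sham libraries of the same ventricle. The difference of −0.78 on the log2 scale did not pass the threshold (adjusted p = 0.0578 from limma), and macrophage markers moved the same way for 14 of 14 tested genes (median −0.55, 6 past the unadjusted p, 1 called), whose part in it was not tested. Gsto1 showed the same opposite pattern in every library, with a difference of −0.58 (adjusted p = 0.0700). Of the genes whose difference passed, Nfe2l1 (1.73) and Msrb3 (0.98) were higher in every VO LV library and lower in every VO RV library than in the matching sham libraries, and Ncf4 (−1.20) was the reverse. Mgst2 (−1.23) and Tkt (−0.82) also passed, but their RV libraries overlapped. All 7 share the same sham libraries, in which the LV and RV levels already differed by the test for Mgst2, Gsto1, Nfe2l1 and Ncf4. The sham levels of the other 3 did not overlap either, at 26.6 to 40.5 FPKM in sham LV against 47.1 to 54.1 in sham RV for Msrb3, 66.6 to 89.1 against 51.5 to 65.0 for Tkt, and 15.5 to 17.1 against 11.7 to 13.4 for Hmox1.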

How the results depend on the processing

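With the model as reported, no enzyme was called in any of the 5 comparisons. At the unadjusted p the counts were 2 for sham LV against sham RV, 2 for VO LV against sham LV, 1 for VO RV against sham RV, 3 for VO LV against VO RV and 5 for the difference of responses. For VO LV against sham LV, the covariate of atrial markers gave 1 (Sod3), and leaving out each library gave 0 to 1 (Sod2, adjusted p = 0.0493 without VO RV replicate 3). For the difference of responses, quantile normalization and voom on recovered reads gave 1 each (Sod2), array weights 2 (Sod2 and Hmox1), the covariate of atrial markers 4 (Sod2, Sod3, Gpx3 and Hmox1), and leaving out each library 0 to 3. Of the 87 listed genes, 5 were called between the sham ventricles. The count was 0 with all genes above 0, the replicate block or the covariate of red blood cell markers, 1 in a separate fit, 3 with the covariate of mitochondria-encoded transcripts, 10 with array weights, 0 without both sham RV replicate 1 and VO RV replicate 2 or both sham LV replicate 2 and VO RV replicate 2, and 0 to 7 without single libraries. For VO LV against sham LV it was 0 as reported, 2 with voom, 6 with array weights, 1 with the covariate of atrial markers and 0 to 3 without single libraries. For the difference of responses it was 5, but 0 with all genes above 0, the replicate block, the covariates of Y-linked genes or red blood cell markers and either pair of libraries left out, 9 with array weights, 8 with the covariate of atrial markers and 0 to 9 without single libraries. The causes were not tested. The replicate block left all 5 counts of enzymes at 0. Deviations of libraries with the same number correlated at −0.218 to 0.123, and under the criterion that every pair exceed 0.1 the libraries were not treated as paired. The 3 pairs of sham LV and sham RV were positive (0.0377 to 0.123), and the sums of Y-linked genes were alike by number there (63.0 and 64.2, 64.1 and 62.1, 0 and 0 FPKM) but not for VO replicate 3 (0 in the LV and 56.0 in the RV). VO RV replicate 3 therefore held tissue of a rat that was in no VO LV library, as Y-linked genes were at 0 in all of those. For the other libraries, these values do not settle whether they share a rat. With all 21603 genes above 0 tested, the genes called between the sham ventricles were 8 in place of 536. They were 3 with the replicate block, 0 with the covariate of red blood cell markers or without sham RV replicate 1, 1 to 5 without sham LV replicate 1 or 2, sham RV replicate 2 or VO LV replicate 2, and 1321 with array weights. For the difference of responses, 583 became 21 with all genes above 0, 1 with the replicate block, 2 with the covariate of red blood cell markers, and 0 without sham LV replicate 1 or 2, sham RV replicate 1 or VO LV replicate 2 or 3. That count became 629 with quantile normalization, 802 with voom, 1045 with array weights and 1265 with the covariate of atrial markers. For VO LV against sham LV, 13 became 0 with the covariates of Y-linked genes, red blood cell markers or mitochondria-encoded transcripts. It became 273 with the covariate of atrial markers and 704 with array weights. The percentages of genes called in the report hold for the settings reported only. No direction of Sod2, Cat, Prdx3 or Hmox1 turned under any alternative, in any comparison. Small differences of Sod1, Sod3, Gpx1, Gpx3 and Txnrd1 did turn in some. With 3 libraries a group, an enzyme that was not called is not shown to be unchanged.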

Other observations

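Taken by group and with no gene called, the wider antioxidant genes had median log2 changes in the LV under VO that ranged by list. Glutathione peroxidases other than the 3 above were lower for 2 of 2 tested genes in the LV (median −0.29) and higher for 2 of 2 in the RV (median 0.23). Of these, Gpx7 was at 31.2, 41.5 and 27.8 FPKM in VO RV, highest in replicate 2, against 34.4, 28.5 and 26.2 in sham RV. Fibroblast markers were lower for 9 of 10 in the LV and higher for 9 of 10 in the RV, and their part was not tested. The producers of superoxide and peroxide, among them the NADPH oxidase components, were lower in VO LV than in sham LV for 8 of 10 tested genes, with a median of −0.18. Macrophage markers were lower in VO LV for 13 of 14 tested genes, with a median also of −0.18 and none called, and their part in the values of the producers was not tested. Selenoprotein synthesis, which supplies the glutathione peroxidases and thioredoxin reductases with selenocysteine, had a median of −0.23 with 4 of 6 genes lower. NRF2 regulators and targets were higher for 8 of 10 genes, with a median of 0.05, and the thioredoxin system had a median of −0.01 over 9 genes. In the RV, 13 of 16 genes of glutathione synthesis and use were higher in VO RV than in sham RV, with a median of 0.15, and all 4 tested genes of heme breakdown and iron storage were higher, with a median of 0.09. Over all tested genes the LV median was −0.02 and the RV median 0.00, and the genes of a group share their libraries.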
